A study of Bos grunniens x Bos taurus and Bos grunniens with 6 samples.

Results

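Meiotic and spermatid transcription regulators are the DNA-binding factors, coactivators and general initiation factors that switch on the gene programmes of spermatocytes and of haploid spermatids. They were followed here in testis tissue of sterile cattle-yak and of yak. The members were all genes of the deposited FPKM table whose symbol was MYBL1, TCFL5, CREM, FHL5, RFX2, RFX3, SOX30, TBPL1, GTF2A1L or SPZ1. Of these 10 symbols, 9 had at least 1 row, and CREM stood on 2 genes, so that 10 of the 18918 genes in the table were members. No row had the symbol MYBL1, and that gene was not analysed here.

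The cattle-yak animals were male F1 offspring of a Jersey bull and a Gannan yak cow (libraries TES5, TES6 and TES7), and the yak animals were male Gannan yaks (Yak8, Yak9 and Yak10). Every animal was 4 years old, and each library held the testis RNA of 1 animal. The groups lived in different counties, and the study's methods give surgical castration for the cattle-yak and euthanasia for the yak, whereas the GEO labels give castration for every sample, so place and collection cannot be told apart from the cross. The FPKM values rested on 11175100 to 11834987 fragments on genes in a cattle-yak library and on 12991641 to 13136129 in a yak library, and a single fragment on a gene of 1 kb stood for 0.0761 to 0.0895 FPKM.

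In mammals, spermatogenesis runs from spermatogonia through meiotic spermatocytes to round spermatids, which then elongate into sperm. TCFL5, a basic helix-loop-helix factor, is made in spermatocytes and spermatids, and the RFX factors bind X-box sequences in genes of cilia and of the sperm flagellum. SOX30, TBPL1 and GTF2A1L are needed for or abundant in late spermatocytes and round spermatids, and CREM with its coactivator FHL5 drives spermatid genes such as those for transition proteins and protamines.

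All 10 member genes were lower in cattle-yak testis and passed the test. Across them the mean FPKM in cattle-yak was between 0.176% (SPZ1) and 22% (TBPL1) of the mean in yak. The comparison used limma on log2 (FPKM + 1) over the 15042 genes with a mean of at least 0.5 FPKM, and a gene counted as called when its p, adjusted after Benjamini and Hochberg, was under 0.05 and its log2 (foldchange) was beyond 1. Of all tested genes 54.2% were called, 20.8% lower and 33.4% higher. This balance depended on the scaling. With median-of-ratios scaling 4173 genes were called lower and 2655 higher. The study's own count test also called more genes lower than higher. The median log2 (foldchange) was −3.37 over the member genes and 0.51 over all tested genes. With median-of-ratios scaling these medians were −3.89 and 0.01. In each of the 10 member genes every cattle-yak value lay below every yak value, as it did in 30.2% of the tested genes, while the groups were apart in the other direction in 53.9%. SPZ1 was already singled out by the study from these libraries, so its direction is not independent evidence. Because whole testis tissue was sequenced, the RNA values alone cannot tell fewer cells of a type from less RNA per cell. In testis sections the study found no round spermatids or sperm in cattle-yak. It also reported fewer spermatogonia and fewer primary and secondary spermatocytes there than in yak. The part of these cell losses in the member values was not tested.

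**Figure D1:**
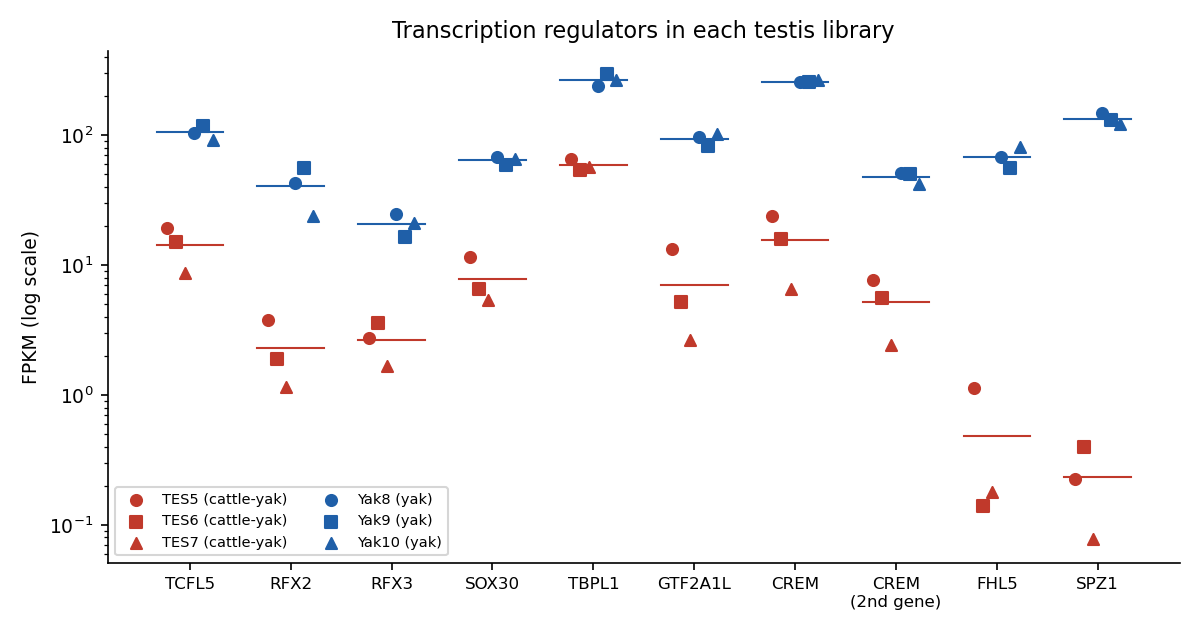
FPKM (log axis) of the 10 member genes in the 3 cattle-yak libraries (red) and the 3 yak libraries (blue), with a short line at each group mean. No red point reaches the blue points of its gene. The gap is narrowest for TBPL1, where the lowest yak value is 3.64 times the highest cattle-yak value, and widest for SPZ1, where it is 304 times.

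The 10 genes together took 0.185%, 0.188% and 0.177% of the summed FPKM in Yak8, Yak9 and Yak10, and 0.0252%, 0.0186% and 0.0142% in TES5, TES6 and TES7. The groups did not overlap, and the exact two-sided permutation p was 0.1, which is as low as 3 animals against 3 can reach. In yak the genes ranked from TBPL1 and CREM at the top to RFX2 and RFX3 at the bottom. The values of neighbours in that order overlapped for TBPL1 and CREM, for TCFL5 and GTF2A1L, for FHL5 and SOX30, for the second CREM gene and RFX2, and for RFX2 and RFX3. In cattle-yak TBPL1 stood clear of CREM, and the genes from CREM down to RFX2 formed a chain in which each overlapped the next. FHL5 and SPZ1 lay below that chain. SPZ1 was the third most abundant member in yak and the least abundant in cattle-yak.

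Among the factors that appear in spermatocytes, TCFL5 (ENSBGRG00000020529) had 104, 118 and 92.6 FPKM in Yak8, Yak9 and Yak10, against 19.4, 15.1 and 8.77 in TES5, TES6 and TES7. The yak libraries were all several times above the cattle-yak libraries, of which TES7 was the lowest. The mean was 105 ± 12.8 FPKM (SD, n = 3) in yak and 14.4 ± 5.36 in cattle-yak, so that log2 (foldchange) was −2.83 with a standard error of 0.25 (limma, adjusted p = 1.3e-05).

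SOX30 (ENSBGRG00000015400), an SRY-box factor required for spermatids to develop past the round stage in mice, had 68.1, 59.5 and 65.3 FPKM in the yak libraries and 11.6, 6.51 and 5.39 in TES5, TES6 and TES7. Yak animals differed little, with a coefficient of variation of 6.88%, whereas TES5 stood at 2.15 times the level of TES7. Log2 (foldchange) was −2.95 with a standard error of 0.23 (limma, adjusted p = 7.4e-06), between 64.3 ± 4.42 FPKM (SD, n = 3) in yak and 7.84 ± 3.32 in cattle-yak.

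RFX2 (ENSBGRG00000000923), which activates genes of spermatid development and flagella, had 42.6, 55.8 and 24 FPKM in Yak8, Yak9 and Yak10. In TES5, TES6 and TES7 its values were 3.81, 1.91 and 1.16 FPKM. It varied most among the yak animals, with a coefficient of variation of 39.1%, yet its lowest yak value was 6.31 times its highest cattle-yak value. Log2 (foldchange) was −3.67 with a standard error of 0.36 (limma, adjusted p = 2.5e-05).

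RFX3 (ENSBGRG00000004985), a regulator of ciliary genes in many tissues, had 24.6, 16.5 and 21.2 FPKM in yak and 2.73, 3.58 and 1.67 in cattle-yak. It was the least abundant member in yak, and here TES6 rather than TES5 was the highest cattle-yak library. The mean fell from 20.8 ± 4.05 FPKM (SD, n = 3) to 2.66 ± 0.956, and log2 (foldchange) was −2.59 with a standard error of 0.23 (limma, adjusted p = 1.3e-05).

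TBPL1 and GTF2A1L belong to the general initiation machinery. TBPL1 (ENSBGRG00000019080), a relative of the TATA-box binding protein that spermatids require, had 241, 296 and 267 FPKM in Yak8, Yak9 and Yak10 and 66.2, 53.6 and 56.8 in TES5, TES6 and TES7. This was the smallest decrease of all members and the steadiest in cattle-yak, with a coefficient of variation of 11.0%. Log2 (foldchange) was −2.17 with a standard error of 0.12 (limma, adjusted p = 1.1e-06).

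GTF2A1L (ENSBGRG00000010808), the germ cell version of the large TFIIA subunit, had 96.8, 83.0 and 103 FPKM in the yak libraries. It had 13.2, 5.22 and 2.64 FPKM in TES5, TES6 and TES7, so that TES5 held 5 times the level of TES7. Log2 (foldchange) was −3.79 (limma, adjusted p = 5.1e-05), and its standard error of 0.42 was the largest of the members.

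CREM (ENSBGRG00000014601), the cyclic AMP responsive factor of spermatids, had 255, 255 and 265 FPKM in Yak8, Yak9 and Yak10. In TES5, TES6 and TES7 it had 23.8, 16.0 and 6.60 FPKM. The yak values were the closest together of any member, with a coefficient of variation of 2.31%, against 55.8% in cattle-yak. Log2 (foldchange) was −4.14 with a standard error of 0.37 (limma, adjusted p = 1.4e-05). The table sums the activating and repressing transcripts of a gene, so the isoforms of CREM were not separated.

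The second gene with the symbol CREM (ENSBGRG00000014932), a short model of 177 bases without a description in the table, is uncertain as a copy or a fragment of the same locus. It had 50.8, 50.4 and 42.2 FPKM in yak and 7.64, 5.56 and 2.44 in cattle-yak, the latter from 16, 11 and 5 fragments. Log2 (foldchange) was −3.07 (limma, adjusted p = 2.6e-05).

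FHL5 (ENSBGRG00000026411), the LIM-domain coactivator of CREM in spermatids, had 68.0, 56.0 and 81.7 FPKM in Yak8, Yak9 and Yak10 and 1.13, 0.139 and 0.178 in TES5, TES6 and TES7. The cattle-yak values stood for 26, 3 and 4 fragments, so that TES5 carried most of what was seen in that group. Log2 (foldchange) was −5.60 with a standard error of 0.26 (limma, adjusted p = 5.5e-07). With a pseudocount of 0.1 it was −7.29, since the pseudocount of 1 exceeded most of the cattle-yak values.

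SPZ1 (ENSBGRG00000020037), a leucine zipper factor of spermatogenic cells, had 148, 131 and 122 FPKM in yak and 0.227, 0.401 and 0.0772 in cattle-yak. The cattle-yak libraries held 3, 5 and 1 fragments of it, 9 in all with an exact 95% Poisson interval of 4.12 to 17.1, which covers counting error only. The yak libraries held 2173, 1912 and 1767 fragments. SPZ1 had the largest decrease of the members, with a log2 (foldchange) of −6.77 (limma, adjusted p = 5.7e-08), or −8.76 with a pseudocount of 0.1.

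Every member had a larger coefficient of variation in cattle-yak than in yak, though for TBPL1 it was 11.0% against 10.4%. The share over all tested genes was not computed, so this is not read as a trait of the members. TES5 was the highest cattle-yak library for 8 of the 10 genes and TES7 the lowest for 8. The full order TES5 above TES6 above TES7 held for 6 of them, compared with 19.2% of all tested genes and 45.4% of the genes called lower. The same order was seen in the summed FPKM of 6 round spermatid markers, 31.1, 15.1 and 5.10, and of 8 elongating spermatid markers, 94.3, 38.8 and 20.7. The sum over 11 spermatocyte markers was 576, 333 and 457, with TES6 the lowest. The part of these differences in the member values was not tested.

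**Figure D2:**
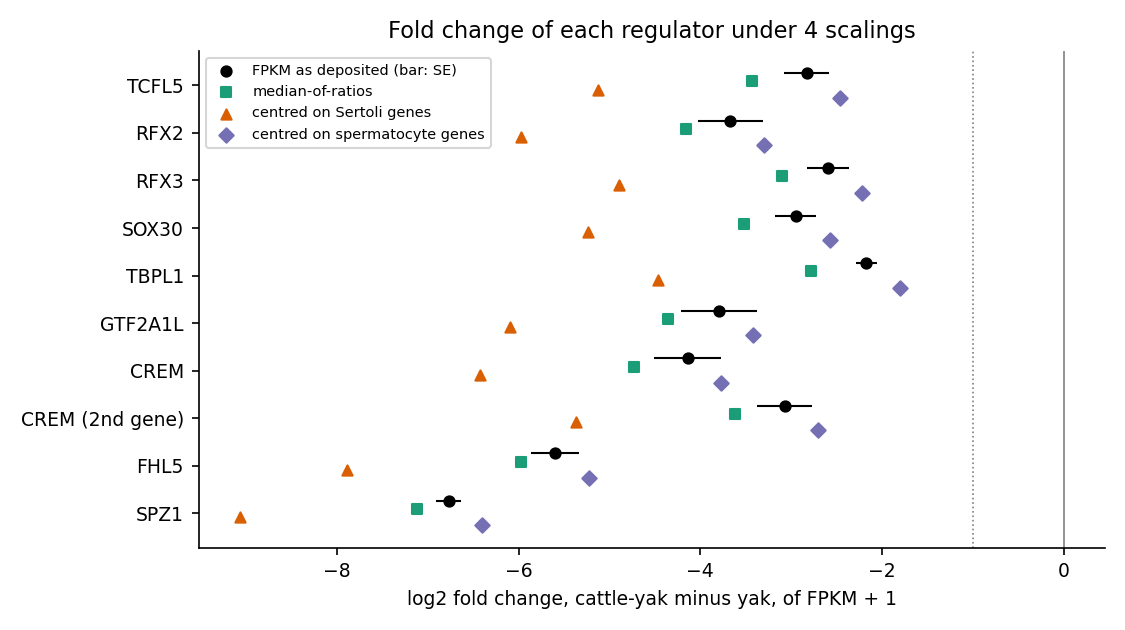
Log2 (foldchange) of each member gene, cattle-yak minus yak, with the FPKM as deposited (black, bars are the standard error) and after 3 other scalings of the libraries. Every symbol lies beyond −1 (dotted line). Centring on spermatocyte genes moved the values nearest to 0, to −1.80 for TBPL1, and centring on Sertoli genes moved them furthest, to −9.07 for SPZ1.

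The size of each decrease moved with the scale on which the libraries were compared, while its sign and call did not. When each library was centred on its own level of the 11 spermatocyte markers, the log2 (foldchange) ran from −6.40 for SPZ1 and −5.23 for FHL5 to −2.22 for RFX3 and −1.80 for TBPL1. Centred on the 11 tested Sertoli genes, the values ran from −9.07 to −4.46. All 10 values stayed beyond −1 under each of these scalings.

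Marker genes of the germ cell stages gave a frame for these values. Of 8 spermatogonial markers 7 were called higher, with a median of 1.89 that was −0.40 when centred on the Sertoli genes. Of 11 spermatocyte markers 1 was called higher, 2 lower and 8 neither, with a median of −0.23 that turned to 0.10 without TES6. All 6 tested round spermatid markers were called lower, with values from −6.86 to −5.04, and all 8 elongating spermatid markers, from −8.27 to −6.36. On this scale of FPKM + 1, the members FHL5 and SPZ1 fell within the range of the round spermatid markers. SPZ1 also lay within the range of the elongating spermatid markers. The other 8 member genes lay between the lowest spermatocyte marker, at −2.10, and the highest round spermatid marker. For Sertoli, Leydig and myoid cells, 11 of 11, 5 of 5 and 6 of 6 tested markers were called higher. Their medians of 2.24, 1.92 and 2.01 were −0.06, −0.38 and −0.29 on the Sertoli scale. The Sertoli value there follows from the centring, which uses the same 11 genes. Endothelial markers gave 3 higher and 1 lower of 6 and macrophage markers 3 higher and 2 lower of 6, with medians that also turned negative on that scale, and pan-germ cell markers 1 lower of 3. Over the Sertoli list the FPKM summed to 502 to 569 in the yak libraries and 2493 to 2648 in the cattle-yak libraries. The part of cell composition in the member values was not tested.

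**Figure D3:**
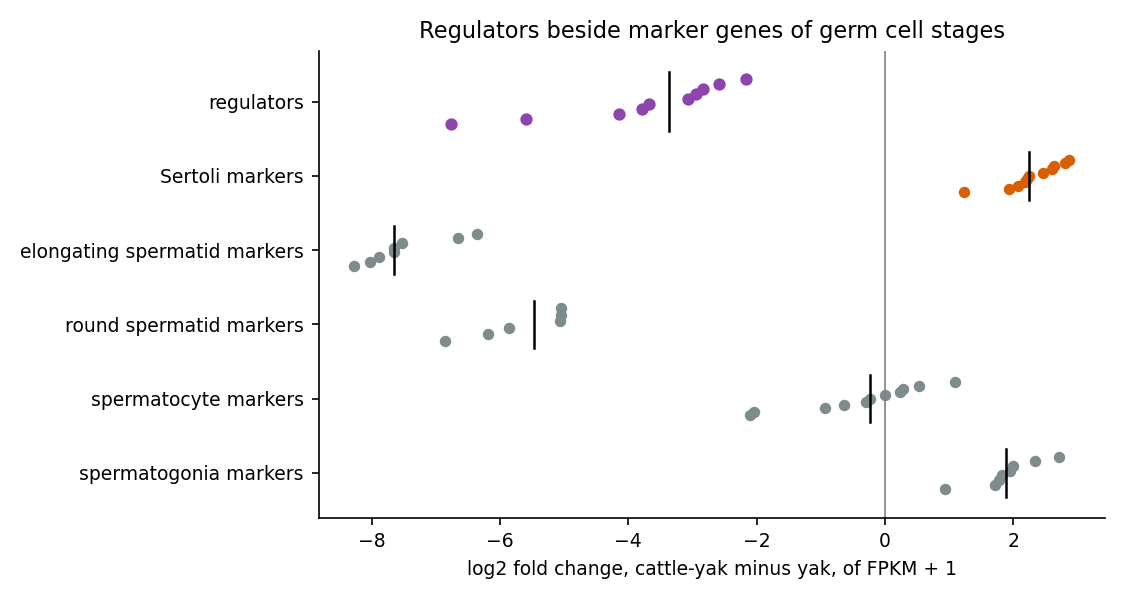
Log2 (foldchange), cattle-yak minus yak, of single genes (points) in marker lists of 4 germ cell stages and of Sertoli cells, and of the 10 regulators, with the list median as a vertical line. The regulators spread from −6.77 to −2.17, between the median of the spermatocyte markers (−0.23) and that of the elongating spermatid markers (−7.65).

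A ratio of 2 genes of the same library is little affected by scaling between libraries. CREM, FHL5, RFX2, RFX3, TBPL1 and GTF2A1L were therefore each set against a paralog, and the other member genes were not paired. The exception is values near the pseudocount, as in cattle-yak for FHL5 and, to a smaller degree, for RFX2 and RFX3. The log2 ratio of (FPKM + 1) of CREM to CREB1, its ubiquitous relative, was 4.19 ± 0.10 (SD, n = 3) in yak and −0.50 ± 0.96 in cattle-yak. CREM thus stood at 18.4 to 21.3 times the FPKM of CREB1 in yak, and at 1.36, 0.722 and 0.326 times in TES5, TES6 and TES7. The log2 ratio of TBPL1 to TBP was 3.78 ± 0.29 in yak and 0.94 ± 0.24 in cattle-yak. TBPL1 remained the more abundant gene of this pair in every library, at 11.4 to 16.3 times TBP in yak and 1.73 to 2.38 times in cattle-yak.

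The pair of TFIIA subunits changed order. GTF2A1L had 2.87 to 3.66 times the FPKM of its ubiquitous counterpart GTF2A1 in yak and 0.0729 to 0.353 times in cattle-yak, and the log2 ratio was lower by 4.09 on average in cattle-yak. FHL5 and FHL2, a LIM-domain relative best known from heart and other mesodermal tissue, also changed order, with a log2 ratio of 4.51 ± 0.59 (SD, n = 3) in yak and −3.60 ± 0.55 in cattle-yak. This difference of −8.11 was −10.26 with a pseudocount of 0.1. FHL2 itself rose from 2.07 ± 0.697 to 16.2 ± 0.556 FPKM, and log2 (foldchange) was 2.52 (limma, adjusted p = 5.6e-06), which was 0.22 and not called when centred on the Sertoli genes. For these 4 pairs the groups did not overlap. With 6 pairs compared, the exact permutation test (two-sided) gave p = 0.1 for each of the 4, adjusted to 0.15, in a design that cannot go below 0.1.

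For the RFX pairs the groups overlapped. RFX2 had 0.313 to 0.727 times the FPKM of RFX1 in yak and 0.149 to 0.511 times in cattle-yak, and the log2 ratio differed by −0.55 between the groups (exact permutation p = 0.3, adjusted 0.3). The log2 ratio of RFX3 to RFX1 differed by 0.52 in the other direction (exact p = 0.2, adjusted 0.24). Omission of single animals gave −0.92 to −0.29 for RFX2 and 0.38 to 0.71 for RFX3. In cattle-yak RFX2 had 1.16 to 3.81 FPKM and RFX3 1.67 to 3.58, near the pseudocount of 1. Both differences therefore depend in part on the pseudocount. The paralog itself had fallen: RFX1 (ENSBGRG00000023159) had 77.5 ± 1.14 FPKM (SD, n = 3) in yak and 8.08 ± 0.843 in cattle-yak, so that log2 (foldchange) was −3.11 (limma, adjusted p = 1.6e-07).

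**Figure D4:**
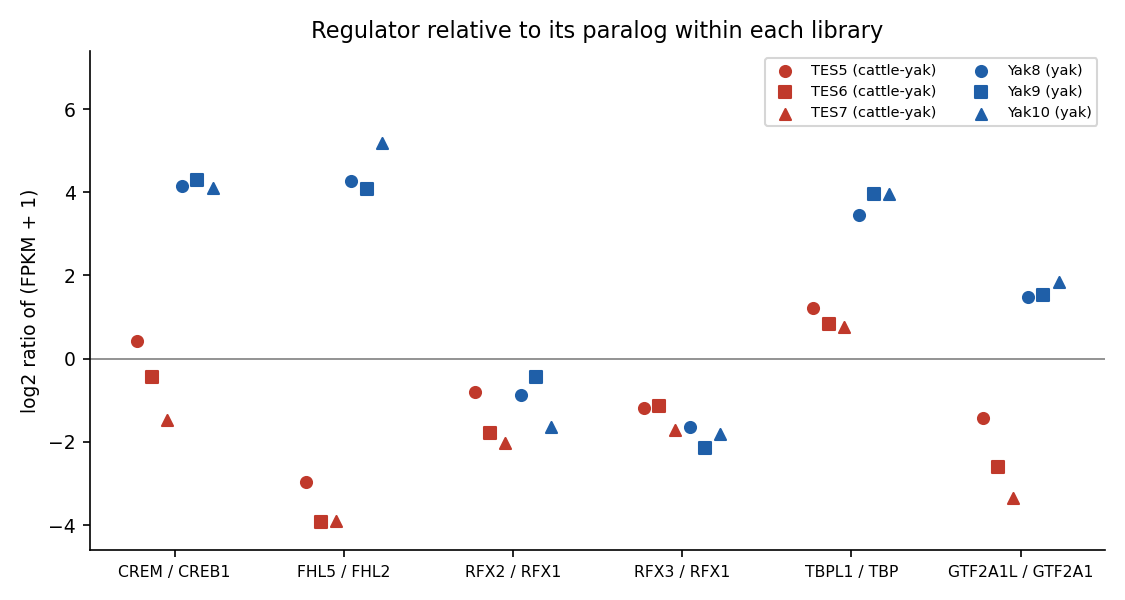
Log2 ratio of (FPKM + 1) of a regulator to its paralog in each library, cattle-yak in red and yak in blue. The groups are apart for CREM, FHL5, TBPL1 and GTF2A1L, and overlap for RFX2 and RFX3 against RFX1.

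Over the whole list of 15 paralogs, 14 were tested, of which 4 were called higher, 4 lower and 6 neither. Its median of 0.43 lay near the 0.51 of all tested genes and was −0.17 with median-of-ratios scaling. The lower genes were RFX1, RFX4, RFX5 and ATF1, a relative of CREB1, with log2 (foldchange) values of −3.11, −4.18, −1.54 and −1.02. ATF1 was no longer past −1 when centred on the spermatocyte genes (−0.65), with quantile normalization (−0.95), without TES6 (−0.97) or without Yak9 (−0.95). With median-of-ratios scaling FHL1 (−1.11) and GTF2A2 (−1.0) were also called lower, and centred on the spermatocyte genes TBP (1.04) was also called higher. The higher genes were FHL2 and FHL3, and the MYB relatives MYB and MYBL2 with 1.74 and 1.03. After centring on the Sertoli genes the values of MYB, MYBL2 and FHL3 turned to −0.56, −1.26 and −0.62. MYBL2 was not past 1 with median-of-ratios scaling (0.44), with quantile normalization (0.92), without TES5 (1.0), without Yak8 (0.98) or without Yak9 (0.98). TBPL2, the oocyte relative of TBP, lay under the minimum for the test and was at 0 in 4 libraries.

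Ratios between members that work together, and between both CREM genes, were added after their values had been seen. FHL5 reached 26.7%, 22% and 30.8% of the FPKM of CREM in the yak libraries, and 4.76%, 0.868% and 2.70% in TES5, TES6 and TES7. GTF2A1L was at 40.2%, 28% and 38.6% of TBPL1 in yak, and at 20%, 9.72% and 4.65% in cattle-yak. FHL5 and GTF2A1L were therefore lower relative to CREM and TBPL1 in every cattle-yak library than in any yak library. The ratio of RFX2 to RFX3, computed in the same way, ran from 113% to 338% in yak and from 53.3% to 139% in cattle-yak, with overlap. The second CREM gene stood at 19.9%, 19.8% and 15.9% of the first in yak and at 32.1%, 34.9% and 36.9% in cattle-yak. The exact permutation test over the 4 ratios gave p = 0.1, adjusted to 0.133, for FHL5, GTF2A1L and the second CREM gene, and p = 0.2 for RFX2. On the log2 scale the difference for GTF2A1L was −1.86, and −2.39 to −1.34 with each animal left out in turn. For FHL5 it was −3.55, and −4.1 to −2.87 with each animal left out in turn, the latter without TES6. The FHL5 values in TES6 and TES7 stood for only 3 and 4 fragments.

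**Figure D5:**
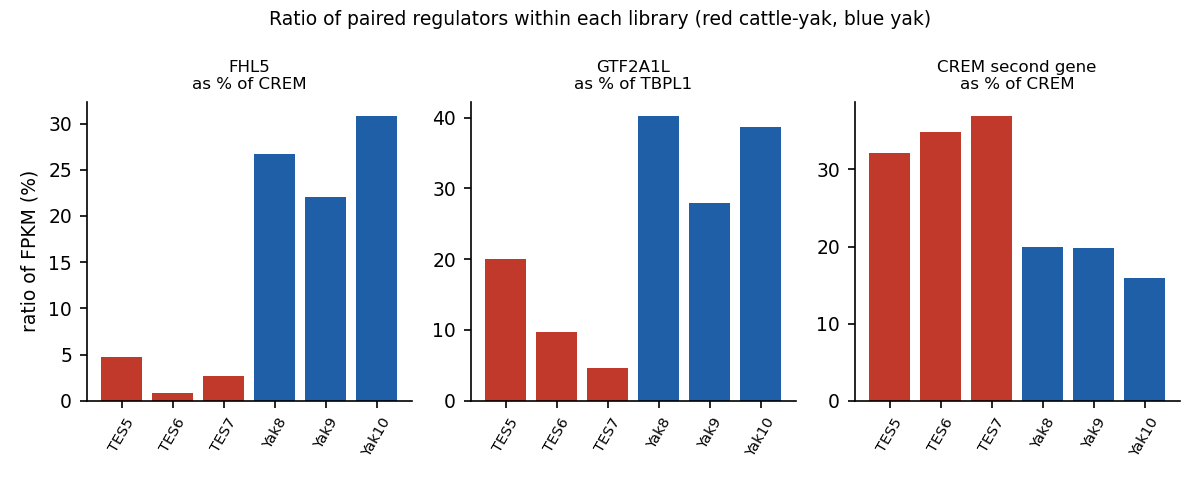
FPKM of FHL5 and of the second CREM gene as a percentage of CREM, and of GTF2A1L as a percentage of TBPL1, in each library (bars, cattle-yak in red, yak in blue). The cattle-yak bars are the lower ones for FHL5 and GTF2A1L and the higher ones for the second CREM gene.

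Several other parts of the initiation complex were called higher with the FPKM as deposited, but not on the Sertoli scale. TAF7L, a germ cell TFIID subunit that works with TBPL1 in mouse spermatids, had 125, 151 and 117 FPKM in TES5, TES6 and TES7 and 26.3, 26.5 and 31.0 in the yak libraries. Log2 (foldchange) was 2.19 (limma, adjusted p = 1.3e-06), and −0.11 when centred on the Sertoli genes. TAF4B, the gonadal form of TAF4, rose from 12.0 ± 0.741 FPKM (SD, n = 3) in yak to 51.5 ± 2.52 in cattle-yak, by 2.01 on the log2 scale, which was −0.28 on the Sertoli scale. TAF1 and TAF9B were also called higher, at 1.33 (0.81 and not called with median-of-ratios scaling) and 1.74, with −0.97 and −0.56 on the Sertoli scale. TAF4 and BRDT, a chromatin reader of spermatocytes and spermatids, were called lower. BRDT fell by 2.66 on the log2 scale, from 41.4 ± 1.55 to 5.89 ± 1.87 FPKM. TAF4, at −1.03, was not past −1 when centred on the spermatocyte genes (−0.65), nor without TES6, TES7, Yak8 or Yak9 (−0.99 to −0.98). In all, 7 of the 8 genes listed were tested, with 4 higher and 2 lower.

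Genes known from mouse work to depend on the regulators were counted as lists. Of 7 genes that MYBL1 drives in spermatocytes, most of them in the piRNA pathway, 6 were called lower with a list median of −2.65, and MOV10L1 was at −0.13. Of 8 genes that depend on CREM or pair with FHL5, 7 were tested and all 7 called lower, with a median of −7.65; TNP1, TNP2, PRM2 and ODF1 are also among the elongating spermatid markers. Within this list KIF17, the kinesin that carries FHL5 out of the spermatid nucleus, had 463, 497 and 471 FPKM in yak and 21.8, 11.6 and 4.08 in TES5, TES6 and TES7. CAMK4 and CYP51A1, which are also expressed in somatic tissue, fell by 2.05 and 2.19 on the log2 scale. Of 4 genes that depend on SOX30 only CCDC54 had a row, with 158 to 209 FPKM in yak and 0.0873 to 1.97 in cattle-yak.

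Of 8 genes that RFX factors bind, most of them genes of cilia and flagella, 6 were tested. Only FOXJ1, a master regulator of motile cilia, was called lower, from 6.59 ± 2.46 FPKM (SD, n = 3) in yak to 0.494 ± 0.383 in cattle-yak. IFT122 and IFT172, of the intraflagellar transport machinery, had log2 (foldchange) values of −0.87 and −0.88, which passed −1 with median-of-ratios scaling (−1.47 and −1.45), and IFT172 also with quantile normalization (−1.14) and without TES5 (−1.01). DYNC2LI1, IFT88 and BBS4 had −0.32, 0.12 and 0.59. The list median was −0.59, and −1.17 with median-of-ratios scaling, −2.89 centred on the Sertoli genes and −0.22 centred on the spermatocyte genes.

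Of 10 other testis transcription factors 9 were tested, with 3 higher, 3 lower and 3 neither. STRA8, which starts the meiotic programme, had 20.6 to 30.0 FPKM in cattle-yak and 6.24 to 9.28 in yak. Its log2 (foldchange) was 1.56, which was 0.99 with median-of-ratios scaling and −0.74 on the Sertoli scale. SOHLH1 and ZBTB16, factors of spermatogonia, were the other genes called higher, neither of them on the Sertoli scale, while SOHLH2 was at 0.05. ZNF541, at −0.90, was called lower with median-of-ratios scaling (−1.5) and without Yak10 (−1.05), and HSF2, at 0.72, was called higher when centred on the spermatocyte genes (1.09). KCTD19, a meiotic factor of spermatocytes, had 148, 185 and 136 FPKM in yak and 23.3, 16.8 and 8.75 in TES5, TES6 and TES7. YBX2, a germ cell binding protein of stored mRNA and Y-box promoters, fell by 4.32 on the log2 scale, and HSFY1, a heat shock factor relative on 5 uncertain genes, had the largest decrease of the list in its most abundant gene.

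The genes most like each member were taken as those with the smallest root-mean-square difference of gene-centred log2 (FPKM + 1) over the 6 libraries. These libraries form 2 groups that hold most of the variation, so the measure mainly finds genes with an equal difference between groups. MROH1 was nearest to TCFL5 (0.052 log2 units), ZNF18 to RFX2 (0.176) and POPDC3 to RFX3 (0.137). CATSPERE, a subunit of the sperm calcium channel, was nearest to SOX30 (0.079), and SPAG5 to TBPL1 (0.062). DRC3, of the axoneme, and CABYR, of the fibrous sheath, were nearest to GTF2A1L (both 0.137), MYOT to CREM (0.092), SORCS3 to the second CREM gene (0.085), TSPAN16 to FHL5 (0.108) and GGTA1 to SPZ1 (0.151). Among the members themselves, the closest pair was TCFL5 and the second CREM gene, at 0.153. TCFL5 and SOX30 differed by 0.217, SOX30 and the second CREM gene by 0.239, and CREM and GTF2A1L by 0.267.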

How the data were processed

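Testis RNA of 3 cattle-yak and 3 yak was sequenced by the study with 150 bp paired-end reads from a stranded mRNA kit, with 1 library per animal. According to the methods, the authors used Trimmomatic for trimming, mapped both groups with HISAT2 to the yak genome LU_Bosgru_v3.0 and computed FPKM with Cufflinks. The deposited FPKM values thus correct for gene length and sequencing depth, and no other scaling between libraries is described. How well reads from the cattle alleles of the cross mapped to the yak genome was not tested, for HSFY1 or any other gene. The members and lists were chosen with earlier results of these data known. The lists hold genes that the study itself named from these libraries, such as PIWIL1, CCNA1, TNP1, TNP2, ID4, SALL4 and SOHLH1. Their directions are not independent evidence either.

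From the steps between low FPKM values, the whole number of fragments was recovered for 17973 of the 18918 genes. A gene was accepted only when all its values lay within 0.03 fragments of a whole number. That closeness is therefore no check of the recovery, and the other genes were left without fragments. The depth of each library was then set so that gene lengths came out as whole bases. Since the unit is FPKM and not counts, the study's count test was replaced by limma 3.58.1 (R 4.3.3; two-sided, eBayes with its trend option) on log2 (FPKM + 1), with a minimum mean of 0.5 FPKM. On this scale the change of low genes is understated. On simulated data limma called 184 of 200 genes changed 4-fold and 2 unchanged genes among 14620. The simulation had few changed genes, as many raised as lowered, and a small spread between animals. In the real data 54.2% of the tested genes were called, so the simulation gives no rate of false calls for them. On the simulated data the recovery returned 99.15% of the genes' counts. Named genes were the members, the genes of the fixed lists and the 2 genes most like each member (the nearest is given, and both where tied). RFX6, RFX8, EHF, SOX5, TOX2 and EGR1 lie outside this rule and were chosen after their values were seen. Where a symbol stood on several genes, the most abundant was used and the others are uncertain. Of the planned paralog pairs, that of MYBL1 was left out because no row had this symbol. The alternatives were pseudocounts of 0.1 and 0.01, a higher minimum mean (5 FPKM) or none, scaling by TPM, quantiles, median of ratios, Sertoli genes or spermatocyte genes, limma with a robust prior or no trend, calls by p alone, voom on the recovered fragments, and the omission of each animal. The ratios between members and voom with median-of-ratios library sizes were added after seeing the data. Single values were compared with exact permutation tests in Python 3.11.15 with scipy 1.17.1. No sequence, genome or gene position was used here, so the promoters were not searched.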

Additional observations from a re-analysis of the deposited data

How the results depend on the processing

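Every member gene kept its direction and its call under all 19 alternatives, each of which also left 10 members called lower and 0 higher. Adjusted p-values are not given for the spermatocyte-centred fit, because they were implausibly small for 3 animals per group. Its calls, for members and for other genes, therefore rest on the log2 (foldchange) alone. Over the other alternatives the largest adjusted p for a member was 0.00059 (GTF2A1L, limma). Of all tested genes, 11427 were lower and 28 higher with Sertoli-centred scaling, 2655 were higher and 4173 lower with median-of-ratios scaling, and 7916 were higher without a fold-change threshold. The difference in the FHL5 to FHL2 log2 ratio was −8.11, and −10.26 and −10.77 with pseudocounts of 0.1 and 0.01. With Sertoli-centred scaling, values above 0 turned negative for BBS4 (−1.70), CREB1 (−1.74), FHL3 (−0.62), GTF2A1 (−2.00), GTF2B (−1.95), HSF2 (−1.58), IFT88 (−2.17), MYB (−0.56), MYBL2 (−1.26), RFX7 (−1.71), SOHLH1 (−0.61), SOHLH2 (−2.25), STRA8 (−0.74), TAF1 (−0.97), TAF4B (−0.28), TAF7L (−0.11), TAF9B (−0.56) and TBP (−1.62). The list medians turned to −1.87 for paralogs, −0.97 for the initiation factors, −0.06 for Sertoli, −0.38 for Leydig, −0.29 for myoid, −1.31 for endothelial, −1.26 for macrophage and −0.40 for spermatogonial genes. The Sertoli value follows from centring on these same genes. The paralog median was −0.17 with median-of-ratios scaling and −0.18 with voom on those library sizes. Subtracting the Sertoli level moved the median of all genes from 0.51 to −1.79. No paired analysis was possible because the labels number the animals 5 to 7 and 8 to 10, with no number shared. Depth limits FHL5, SPZ1 and the second CREM gene, for which the cattle-yak libraries hold 1 to 26 fragments.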

Other observations

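Other genes of the RFX family and of the transcription factor class were looked at after the values above had been seen. The table held 8 genes named RFX1 to RFX8, of which 7 were called lower and 1, RFX7, was not (0.58). RFX6, best known from the endocrine pancreas, had 20.4, 16.7 and 20.6 FPKM in Yak8, Yak9 and Yak10 and 0.171, 0.136 and 0.196 in TES5, TES6 and TES7. RFX8 had 26.3 ± 5.71 FPKM (SD, n = 3) in yak and 0.635 ± 0.37 in cattle-yak, and RFX4 55.2 ± 10.1 and 2.33 ± 1.63. The log2 (foldchange) was −4.11 for RFX6, −4.06 for RFX8 and −4.18 for RFX4, each a larger decrease than that of RFX2 or RFX3, although the differences between genes were not tested.

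Of the 687 tested genes annotated in the table with RNA polymerase II-specific DNA-binding transcription factor activity, 15.3% were called lower and 34.5% higher, beside 20.8% and 33.4% of all tested genes. The annotation is incomplete, since TCFL5 was the only member that carried this term, at rank 21 of 687 from the largest decrease. EHF, an ETS factor of epithelia, had 42.7 ± 4.72 FPKM (SD, n = 3) in yak and 0.514 ± 0.29 in cattle-yak, and SOX5, which has a short testis form, 73.2 ± 2.57 and 3.34 ± 0.604. At the other end, TOX2 had the largest increase, 3.0 on the log2 scale, with 17.9 ± 2.12 FPKM in cattle-yak and 1.43 ± 0.755 in yak, and EGR1, an immediate early gene, had 2.76. Centred on the Sertoli genes these increases were 0.70 and 0.46. Among the 57 genes annotated with spermatid development 61.4% were called lower, RFX2 among them.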
